A study of Mus musculus with 24 samples.

Results

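The mitochondrial ribosomal proteins described here are the protein-coding genes whose symbol begins with Mrpl (large subunit) or Mrps (small subunit) followed by a digit. The deposited table held 78 of them, 49 Mrpl and 29 Mrps, among 56748 genes. Their mRNA was measured in C2C12 cells, a mouse line of muscle precursors (24 libraries). The cells carried a lentiviral vector with doxycycline-inducible UCP1, the uncoupling protein of brown fat mitochondria. Seeded cells received doxycycline or water at 24 h, were treated from 24 h after that, and were lysed for RNA once 16 h of treatment had passed. Treatment was with albumin at 51 µM (BSA), with the fatty acid oleate at 300 µM (OA), or with the same amount of oleic acid plus 1 µM oligomycin, an inhibitor of the mitochondrial ATP synthase (OOA). The water arm held the groups BSA, OA and OOA, and the doxycycline arm held Dox_BSA, Dox_OA and Dox_OOA, with 4 libraries in each. Every group carried the vector, so a doxycycline effect and a UCP1 effect cannot be told apart. The labels do not give the albumin level of the oleic acid groups, and nothing in them says that replicates were grown as separate cultures, so that the p-values measure only the spread between these libraries.

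The mitochondrial ribosome, or mitoribosome, sits in the mitochondrial matrix and translates the few messages of mitochondrial DNA, all of which encode subunits of the respiratory chain and the ATP synthase. Its proteins are encoded in the nucleus, made in the cytosol and imported, while its rRNAs (mt-Rnr1 in the small and mt-Rnr2 in the large subunit) are transcribed from mitochondrial DNA. Many of its proteins have counterparts in bacterial ribosomes and others are found in mitochondria alone. Doxycycline belongs to the tetracyclines, antibiotics that bind the small subunit of bacterial ribosomes and also slow mitochondrial translation.

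Values were FPKM, a depth- and length-normalised read count, as deposited by the authors. The reads assigned to the listed genes, recovered from the FPKM, numbered 20370651 to 29410667 a library. The library size behind the FPKM was rescaled, to 0.965 to 1.03 times these reads. It was 0.965 to 0.983 times the reads in OOA libraries and 0.996 to 1.01 times in OA libraries. Vector-driven Ucp1 averaged 4.42 to 6.84 FPKM in the water groups and 214.9 to 336.5 FPKM in the doxycycline groups. All 6 myoblast markers examined reached 1 FPKM, as did 5 of 6 myotube markers. Of 13 markers of macrophages, endothelium, adipocytes and epithelium, Cd68 alone did so, at no more than 2.46 FPKM, and 5 (Adgre1, Adipoq, Plin1, Cidea and Krt8) were listed at 0 in every library. The summed myotube markers ran from 44.4 to 58.0 FPKM in BSA, 26.8 to 40.8 in OA, 12.02 to 14.4 in OOA, 26.6 to 35.6 in Dox_BSA, 22.8 to 24.9 in Dox_OA and 15.1 to 23.0 in Dox_OOA. The summed myoblast markers, in the same order of groups, ran from 1008 to 1056, 879 to 949.6, 775 to 844, 964 to 989, 845 to 893 and 928 to 1003 FPKM. This sum was lower with oligomycin in the water arm and higher with it in the doxycycline arm, without overlap in either. A single myoblast marker reached 903 FPKM, so the sum mostly follows a single gene and does not describe the other myoblast markers. The part of these markers in the results below was not tested. In bulk RNA, fewer cells with a transcript and less of it per cell cannot be told apart.

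The promoters below belong to the 4 members whose response to oligomycin differed most between the arms, as described further on. They are shown because Mrps18b and Mrpl24 rose in OOA while Mrpl18 and Mrps21 fell, so that both directions can be compared at sequence level. Each runs 5′ to 3′ on the gene's strand from 250 bases before to 50 bases after the annotated start, from RefSeq with GRCm38.p6 coordinates. Capitals mark a match on either strand to the ETS-family core CCGGAAG or to the NRF1 motif GCGCANGCG, motifs of factors long associated with nuclear genes for mitochondrial proteins.
Mrps18b, chr17:35916391-35916690 (minus strand): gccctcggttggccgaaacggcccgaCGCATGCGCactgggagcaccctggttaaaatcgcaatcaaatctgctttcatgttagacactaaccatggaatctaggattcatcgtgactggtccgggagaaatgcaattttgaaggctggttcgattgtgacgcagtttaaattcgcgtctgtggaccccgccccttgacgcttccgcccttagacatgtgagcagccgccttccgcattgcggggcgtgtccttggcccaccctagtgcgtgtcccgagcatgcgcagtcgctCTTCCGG
Mrpl24, chr3:87919294-87919593 (plus strand): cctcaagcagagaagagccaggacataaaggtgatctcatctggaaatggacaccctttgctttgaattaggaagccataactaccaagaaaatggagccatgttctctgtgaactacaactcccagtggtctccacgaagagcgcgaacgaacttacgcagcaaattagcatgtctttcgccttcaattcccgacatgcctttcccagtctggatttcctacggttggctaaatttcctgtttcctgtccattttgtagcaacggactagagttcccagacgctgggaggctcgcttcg
Mrpl18, chr17:12916042-12916341 (minus strand): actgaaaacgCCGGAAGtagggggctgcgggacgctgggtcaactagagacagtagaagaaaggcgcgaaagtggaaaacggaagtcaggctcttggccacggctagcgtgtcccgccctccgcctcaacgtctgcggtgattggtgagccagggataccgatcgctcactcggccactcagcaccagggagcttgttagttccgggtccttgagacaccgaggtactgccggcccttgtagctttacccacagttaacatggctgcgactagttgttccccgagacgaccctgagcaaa
Mrps21, chr3:95871465-95871764 (minus strand): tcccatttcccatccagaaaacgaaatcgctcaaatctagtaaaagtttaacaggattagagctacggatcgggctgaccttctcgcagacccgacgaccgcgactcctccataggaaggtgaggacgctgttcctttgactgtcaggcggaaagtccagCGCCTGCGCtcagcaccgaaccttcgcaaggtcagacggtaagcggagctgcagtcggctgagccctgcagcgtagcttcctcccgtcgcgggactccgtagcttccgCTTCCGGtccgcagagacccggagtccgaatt
Mrps18b and Mrps21 held both motifs, Mrpl18 held the ETS core alone, and the Mrpl24 window held neither. RefSeq windows were matched for 69 of the 78 members, 75 windows in all. The ETS core stood in 26 of these (34.7%), against 18.3% of the windows of all tested genes and 8.86% of all windows of the same length in the table. The NRF1 motif stood in 21.3% of member windows, against 13.7% of the windows of tested genes and 6.25% of all windows. The YY1 motif AANATGGCG stood in 14.7%, against 5.31% and 2.38%. The E-box CACGTG stood in 9.33%, against 10.2% and 7.15%. The letters TGATGCAA, a composite site of ATF4 and C/EBP factors, were in 0 of the 75 member windows, against 0.553% of the windows of tested genes and 0.895% of all. Among members higher in OOA than in OA the ETS core was in 2 of 16 windows, among members lower it was in 9 of 27, and among members not called in 14 of 31. The NRF1 motif was in 5 of 16, 3 of 27 and 8 of 31 windows of the same classes. These matches are a description of letters and were not tested.

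The members were expressed at low to moderate levels. Averaged over all 24 libraries, Mrpl12, a stalk protein that in human cells also binds the mitochondrial RNA polymerase, was highest at 40.8 FPKM. It was followed by Mrpl34 at 33.6, Mrpl2 at 32.0, Mrpl52 at 31.1, Mrps21 at 31.0 and Mrpl10, the other stalk protein named here, at 30.7 FPKM. At the low end stood Mrpl48 at 1.59, Mrpl35 at 2.03, Mrps25 at 2.27 and Mrps35 at 2.44 FPKM. Mrpl53 was listed at 0 in every library and could not be tested, which left 77 members (48 Mrpl and 29 Mrps). FPKM divides by the gene length in the deposited table, so levels were compared between genes only on that scale.

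Some members carry a limit on how their reads could be assigned. Of the 78, 22 overlap another expressed gene, and the sources used here do not say if reads were counted by strand. Mrpl18 lies opposite Tcp1, Mrpl24 opposite Rrnad1, Mrpl49 opposite Syvn1 and Mrpl46 opposite Mrps11, while Mrps6 lies on the same strand as Slc5a3. Processed pseudogenes share reads in principle with Mrpl48, Mrpl27, Mrpl23 and Mrps36, whose levels are uncertain for that reason. Mrpl48-ps ran from 7.85 to 12.3 FPKM and Mrpl27-ps from 6.63 to 13.9 FPKM, and Mrpl23-ps1 reached 2.32 FPKM.

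Summed over the 49 Mrpl genes, the level was highest in OA and lowest in Dox_OOA. The OA libraries summed to 748, 751, 743 and 722 FPKM and the OOA libraries to 650.5, 699, 661 and 682 FPKM. The Dox_OA libraries summed to 668, 669.8, 707 and 668 FPKM and the Dox_OOA libraries to 639, 607, 567 and 624 FPKM. In either arm, every library with oligomycin lay below every library with oleic acid alone. The group means in order were 741 ± 12.9 in OA, 689 ± 29.7 in BSA, 678 ± 19.1 in Dox_OA, 677 ± 45.6 in Dox_BSA, 673 ± 21.6 in OOA and 609 ± 31.1 in Dox_OOA (SD, n = 4 each). BSA, Dox_OA, Dox_BSA and OOA lay within their spread of each other.

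The 29 Mrps genes followed the same order at both ends. Their sums were 329 ± 6.52 FPKM in OA, 316 ± 5.38 in BSA, 310.2 ± 2.25 in OOA, 305 ± 12.8 in Dox_BSA, 303 ± 10.4 in Dox_OA and 284 ± 8.50 in Dox_OOA (SD, n = 4 each). Every OOA library, at 307, 309.9, 312 and 312 FPKM, lay below every OA library, at 326, 334, 335 and 321. Much of that fall came from Mrps21, at 33.4 ± 1.84 FPKM in OA and 20.8 ± 2.98 in OOA. Without Mrps21 the OA and OOA sums overlapped. Every Dox_OOA library, at 294, 282, 274 and 287 FPKM, lay below every Dox_OA library, at 299, 296, 319 and 299. The ratio of the Mrpl sum to the Mrps sum stayed between 2.14 (Dox_OOA) and 2.25 (OA) as group means, with SDs of 0.019 to 0.066. All members together made up 0.386% of all FPKM in OA and 0.329% in Dox_OOA. These sums are dominated by the most abundant members and carry no test.

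**Figure D1:**
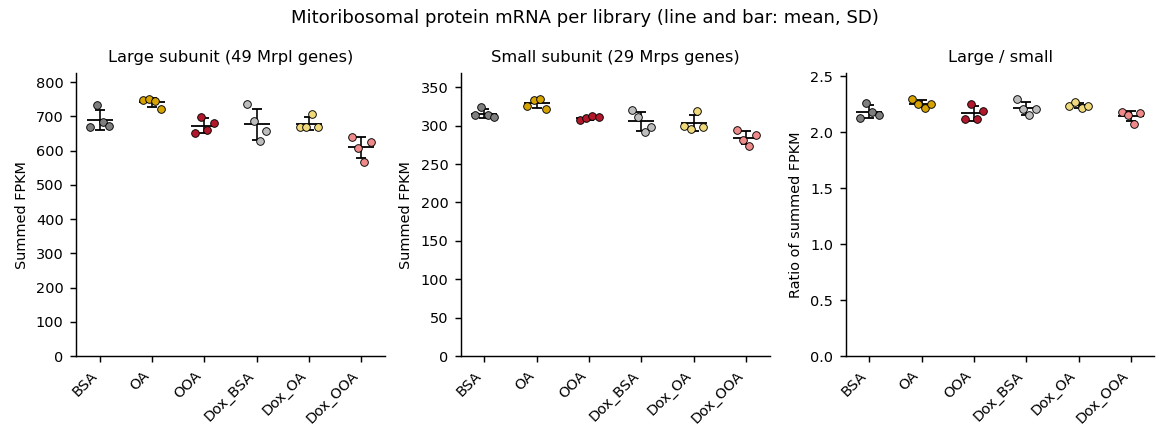
Summed FPKM per library of the 49 Mrpl genes (left), the 29 Mrps genes (middle) and their ratio (right) in the 6 groups, with points for libraries and line and bar for mean and SD (n = 4). The 4 OA libraries sum to 722 to 751 FPKM for Mrpl, above all 4 OOA libraries (650.5 to 699), and the Dox_OOA group is lowest in both subunits.

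The question of how blocking the ATP synthase bears on the mitoribosome was addressed by OOA against OA. Here members moved in both directions. Of 77 tested, 14 were higher and 25 lower in OOA (limma on log2(FPKM + 1), adjusted p under 0.05 over 12904 genes). Of all genes tested 28.5% were called higher and 28.4% lower, so the members' 18.2% higher and 32.5% lower lay below and near the background. Of 48 Mrpl, 7 were higher and 15 lower. Of 29 Mrps, 7 were higher and 10 lower. The median difference was -0.06 for Mrpl and 0.01 for Mrps on the log2 scale, against 0.01 for all genes tested, and the Mrpl median was -0.0410 without OOA 2, -0.0429 without OOA 3 and -0.1014 with voom. The Mrps median was 0.0218 without OA 1 and 0.0036 without OOA 2, and it was below 0 with voom (-0.0275), with a fixed sum of FPKM (-0.0012), and without OA 2, OA 3, OOA 3 or, at its lowest, OA 4 (-0.0174).

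**Figure D2:**
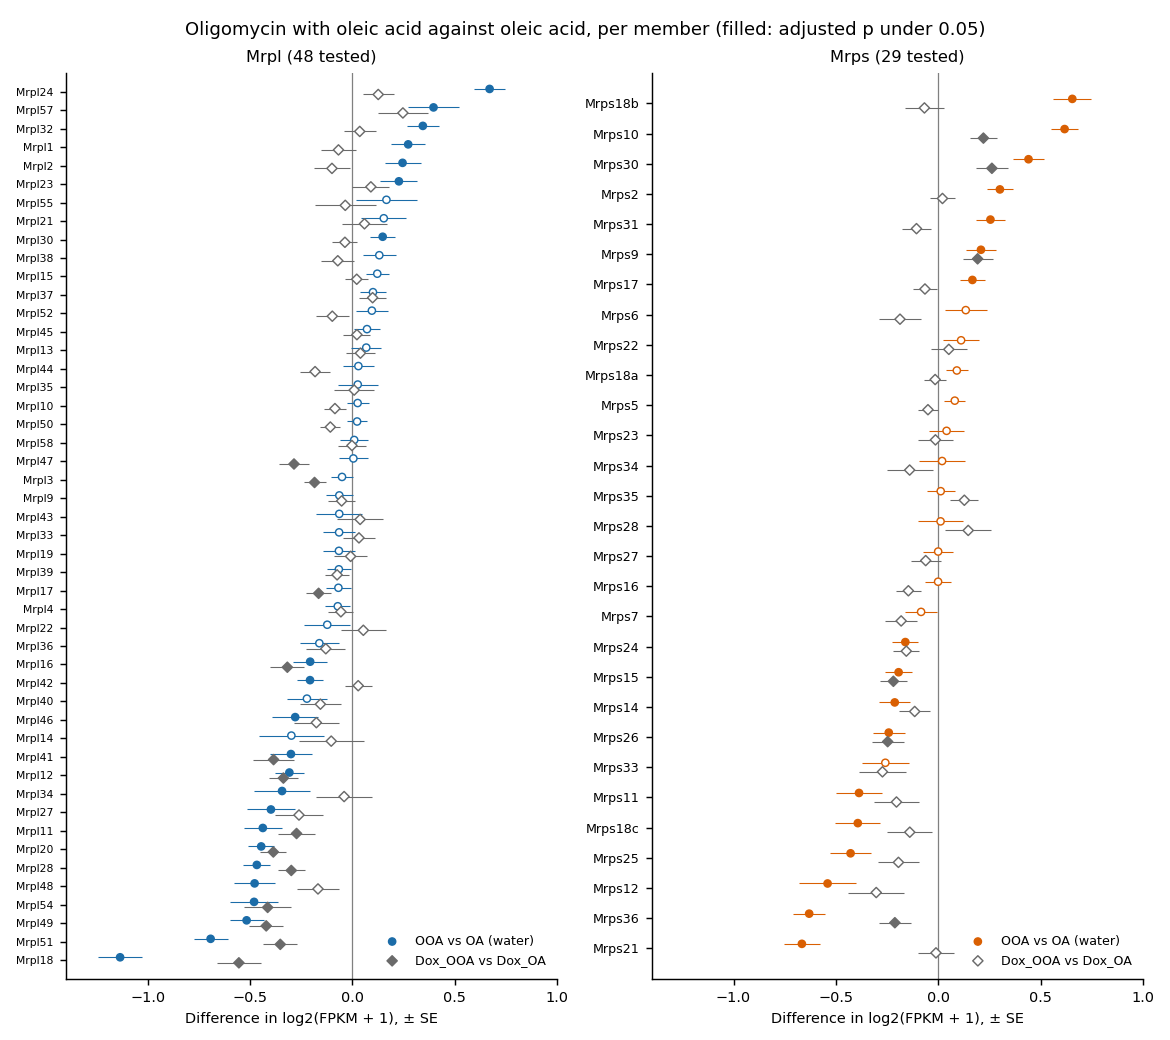
Difference in log2(FPKM + 1) with its SE for each of 48 Mrpl (left) and 29 Mrps (right) members, in OOA against OA (circles) and Dox_OOA against Dox_OA (diamonds), filled where the adjusted p was under 0.05. Values in the water arm run from -1.14 (Mrpl18) to 0.67 (Mrpl24), and genes are ordered by them. Both ends thus hold the extremes of the circles. Most diamonds lie nearer 0 there, which that ordering favours and which cannot show a weaker response with doxycycline.

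The 6 largest rises were those of Mrpl24, Mrps18b, Mrps10, Mrps30, Mrpl57 and Mrpl32. Mrpl24, whose bacterial counterpart starts assembly of the large subunit, had 11.2, 11.6, 13.4 and 13.5 FPKM in the OA libraries and 21.0, 19.6, 20.5 and 20.3 in the OOA libraries. All OOA values lay above all OA values, with a difference of 0.67 ± 0.07 (SE, limma adjusted p = 6.46e-08). The overlapping Rrnad1 changed in the same direction by 0.36 ± 0.10 (adjusted p = 0.00529). Mrps18b, one of the mammalian Mrps18 paralogues and a small-subunit protein, had 8.22, 8.59, 7.87 and 10.1 FPKM in OA and 14.8, 13.0, 15.1 and 14.1 in OOA. The groups did not overlap, and the difference was 0.66 ± 0.09 (limma adjusted p = 2.44e-06). Mrps10, a protein of the head of the small subunit, had 4.54, 4.27, 4.65 and 4.63 FPKM in OA and 7.54, 7.03, 8.08 and 7.26 in OOA, again without overlap, a difference of 0.62 ± 0.07 (limma adjusted p = 3.81e-08).

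Mrps30, which despite its symbol is built into the large subunit, had 3.46, 4.29, 3.23 and 2.98 FPKM in OA and 4.90, 5.08, 5.43 and 4.84 in OOA. Its libraries did not overlap, and the difference was 0.44 ± 0.08 (limma adjusted p = 3.34e-05). Mrpl57, a large-subunit protein without a bacterial counterpart, had 4.39, 4.97, 4.42 and 3.46 FPKM in OA and 6.60, 5.74, 5.74 and 5.75 in OOA. All OOA libraries were above all OA libraries and OOA 1 stood apart as the highest, with a difference of 0.40 ± 0.12 (limma adjusted p = 0.00865). Mrpl32, which is matured by the m-AAA protease of the inner membrane before it joins the ribosome, had 3.19, 3.66, 3.22 and 3.78 FPKM in OA and 5.04, 3.999, 4.64 and 5.01 in OOA. The groups did not overlap, with a difference of 0.34 ± 0.08 (limma adjusted p = 0.000656). The other 8 members called higher (Mrpl1, Mrpl2, Mrpl23, Mrpl30, Mrps2, Mrps9, Mrps17 and Mrps31) differed by 0.15 to 0.30.

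The largest fall was that of Mrpl18, a member of the family that in bacteria binds the smallest ribosomal RNA of the large subunit. It had 25.4, 25.1, 25.9 and 29.1 FPKM in OA and 12.1, 11.9, 11.1 and 10.6 in OOA. The groups lay far apart, with no OOA library near the lowest OA library, and differed by -1.14 ± 0.11 (SE, limma adjusted p = 6.99e-09). The overlapping Tcp1 differed by -0.09 ± 0.04 and was not called (adjusted p = 0.0853). Mrpl51, a mitochondrial protein of the large subunit, had 9.27, 10.0, 8.10 and 9.57 FPKM in OA and 5.02, 5.67, 5.45 and 5.16 in OOA. The groups did not overlap and differed by -0.69 ± 0.08 (limma adjusted p = 1.92e-07). Mrps21, a small-subunit protein with a bacterial counterpart, had 31.8, 32.1, 35.7 and 34.1 FPKM in OA and 17.4, 24.3, 22.0 and 19.6 in OOA. Its highest OOA library was OOA 2, still below every OA library, and the difference was -0.67 ± 0.09 (limma adjusted p = 7.7e-07).

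Mrps36 carries a ribosomal symbol but is now known as a component of the 2-oxoglutarate dehydrogenase complex of the citric acid cycle. It had 12.1, 11.9, 9.88 and 11.3 FPKM in OA and 6.31, 7.16, 6.39 and 7.92 in OOA, without overlap, a difference of -0.63 ± 0.08 (limma adjusted p = 2.9e-07). Mrps12, a protein of the decoding centre, had 17.7, 17.5, 19.1 and 15.5 FPKM in OA and 13.6, 13.8, 9.22 and 10.6 in OOA. All OOA libraries were lower, with a difference of -0.54 ± 0.14 (limma adjusted p = 0.00202). Mrpl49, which has no bacterial counterpart, had 23.4, 21.6, 24.1 and 22.1 FPKM in OA and 15.5, 16.5, 16.3 and 14.2 in OOA. These groups did not overlap and differed by -0.52 ± 0.08 (limma adjusted p = 1.19e-05), while the overlapping Syvn1 differed by -0.06 ± 0.06 and was not called (adjusted p = 0.371).

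The remaining 19 members called lower differed by -0.48 to -0.16. They included the stalk protein Mrpl12 (-0.31 ± 0.07, limma adjusted p = 0.000626), Mrps18c (-0.39 ± 0.11), Mrpl28 (-0.47 ± 0.07) and Mrpl20 (-0.45 ± 0.06). The stalk protein Mrpl10 (0.03 ± 0.05), the membrane-facing Mrpl45 (0.07 ± 0.07), Mrpl58, a peptidyl-tRNA hydrolase that rescues stalled ribosomes (0.01 ± 0.07), Mrpl44 (0.03 ± 0.07), Mrps7 (-0.08 ± 0.08) and Mrps18a (0.09 ± 0.05), another protein of the large subunit, were not called. Thus the paralogues Mrps18b and Mrps18c were called in opposite directions. Of the 39 calls, 27 held in all 30 alternative settings. The 12 that did not were Mrpl2, Mrpl16, Mrpl23, Mrpl30, Mrpl34, Mrpl42, Mrpl46, Mrps9, Mrps14, Mrps15, Mrps17 and Mrps24, and leaving out 1 library at a time gave 32 to 40 calls.

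In the doxycycline arm, the same addition of oligomycin gave fewer calls. Of 77 members, 3 were higher and 16 lower in Dox_OOA than in Dox_OA, against 16.2% of all genes called higher and 17.0% lower. All 3 members called higher were Mrps, namely Mrps30 (0.26 ± 0.08, limma adjusted p = 0.0106), Mrps10 (0.22 ± 0.07, adjusted p = 0.0131) and Mrps9, of the small subunit (0.19 ± 0.07, adjusted p = 0.0479). The Mrps9 call was lost in 19 of the 30 alternatives, 14 of them with 1 library left out, namely OA 1, 2, 3 and 4, OOA 1, 3 and 4, Dox_BSA 1 and 2, Dox_OA 2 and 4 and Dox_OOA 2, 3 and 4 (adjusted p up to 0.152), and the Mrps10 call without Dox_OOA 4 (adjusted p = 0.0568). Of the 16 called lower, 13 were Mrpl and 3 Mrps. The median difference was -0.08 for Mrpl and -0.11 for Mrps, against 0.0030 for all genes tested. The Mrpl median was -0.1238 without Dox_OOA 1 and the Mrps median -0.0506 without Dox_OOA 3. Of the 19 calls, 12 held in all 30 alternatives, and those of Mrpl11, Mrpl17, Mrps9, Mrps10, Mrps15, Mrps26 and Mrps36 did not.

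Mrps10 had 4.29, 4.56, 4.91 and 4.76 FPKM in Dox_OA and 5.07, 5.17, 5.89 and 6.15 in Dox_OOA, and Mrps30 had 3.18, 2.84, 3.13 and 3.47 and 3.97, 4.08, 3.71 and 4.16. Neither pair of groups overlapped. Among the members called lower, Mrpl18 had 21.3, 23.0, 22.9 and 28.7 FPKM in Dox_OA and 17.4, 17.3, 11.9 and 17.7 in Dox_OOA. Here Dox_OOA 3 was far below the other libraries of its group, the groups did not overlap, and the difference was -0.55 ± 0.11 (limma adjusted p = 0.000403). Mrpl49 had 22.0, 20.9, 20.3 and 21.4 FPKM in Dox_OA and 17.2, 16.1, 13.3 and 15.8 in Dox_OOA. All Dox_OOA libraries were lower, with a difference of -0.42 ± 0.08 (limma adjusted p = 0.000384).

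OOA against OA and Dox_OOA against Dox_OA share no library and can be set side by side. Of the 25 members lower in the water arm, 13 were also called lower with doxycycline, which is 13 of the 16 called lower there. These shares of 52.0% and 81.2% lay near those over all genes, 47.2% and 78.8%. Of the 14 higher in the water arm, 3 were called higher with doxycycline, which is all 3 called higher there. That is 21.4% of the 14, against 42.7% over all genes, and 75.2% of all genes higher with doxycycline were also higher with water. No member was called in opposite directions. Across the 77 members, Pearson's r between both sets of log2 differences was 0.73, against 0.68 across all 12904 genes, where genes share libraries and are not independent replicates. Called with doxycycline alone were Mrpl17 (-0.17 ± 0.06), Mrpl3 (-0.19 ± 0.05) and Mrpl47 (-0.29 ± 0.07), and whether these differ from the water arm was called for Mrpl47 alone, as the interaction below shows.

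The interaction asks directly whether the difference made by oligomycin was another one with doxycycline. It was called for 14 members, 4 higher and 10 lower, which is 5.19% and 13.0% of the 77 against 15.1% and 14.6% of all genes. For each of the 4 higher ones the fall was smaller or absent in the doxycycline arm. Mrps21 had 35.1, 31.1, 37.0 and 28.8 FPKM in Dox_OA and 36.4, 30.2, 32.4 and 31.8 in Dox_OOA. These libraries overlapped fully, so that the fall of the water arm was not seen (-0.01 ± 0.09 against -0.67 ± 0.09, interaction 0.66 ± 0.12, limma adjusted p = 0.000253). Mrpl18 fell in both arms, by less with doxycycline (-0.55 ± 0.11 against -1.14 ± 0.11, interaction 0.58 ± 0.15, limma adjusted p = 0.00587). Mrps36 had 8.70, 8.60, 10.6 and 10.3 FPKM in Dox_OA and 8.61, 7.94, 7.63 and 8.16 in Dox_OOA, overlapping groups, with an interaction of 0.42 ± 0.11 (limma adjusted p = 0.00522). Mrpl51 had 7.80, 7.79, 9.64 and 8.10 FPKM in Dox_OA and 6.40, 6.12, 6.66 and 5.98 in Dox_OOA. These did not overlap, and its interaction was 0.34 ± 0.12 (limma adjusted p = 0.0313), lost without the filter on low values and without OA 2 and 4, OOA 1 and 4, Dox_OA 1, 2 and 4 and Dox_OOA 1 and 3 in turn (adjusted p up to 0.0778).

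**Figure D3:**
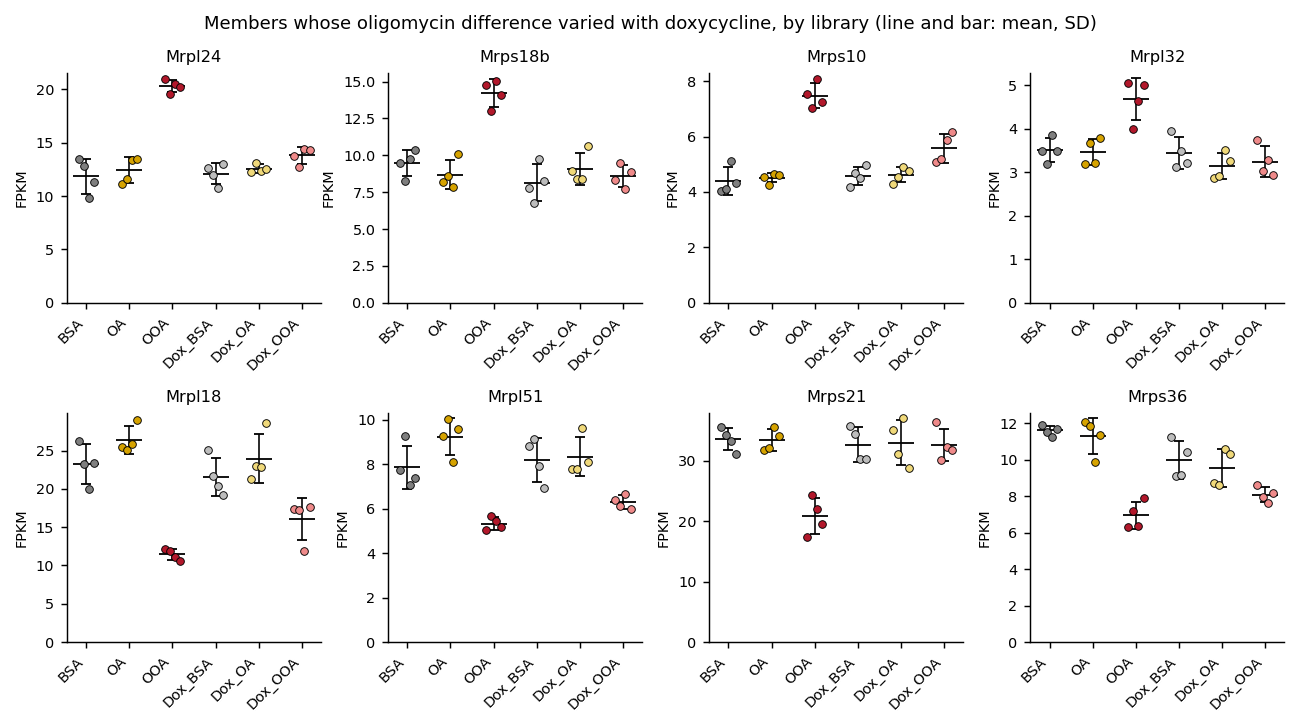
FPKM per library in the 6 groups for 4 members that rose (top) and 4 that fell (bottom) in OOA against OA and whose interaction with doxycycline was called, with line and bar for mean and SD (n = 4). OOA stands apart in most panels, which follows from choosing them by calls that use the OOA libraries. Mrps21 lies at 17.4 to 24.3 FPKM in OOA, below every library of the other 5 groups.

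The 10 members with a negative interaction had a smaller or absent rise with doxycycline, or a fall. Mrps18b had 8.90, 8.37, 8.37 and 10.6 FPKM in Dox_OA and 8.33, 9.48, 7.69 and 8.87 in Dox_OOA. Those groups overlapped (-0.07 ± 0.09), and the interaction was -0.72 ± 0.13 (limma adjusted p = 0.000177). Mrpl24 had 12.3, 13.1, 12.3 and 12.6 FPKM in Dox_OA and 13.8, 12.7, 14.4 and 14.3 in Dox_OOA. These overlapped too (0.13 ± 0.07), and the interaction was -0.54 ± 0.11 (limma adjusted p = 0.000341). For Mrps10 the interaction was -0.40 ± 0.09 (limma adjusted p = 0.00234). Mrpl32 had 2.87, 2.92, 3.50 and 3.25 FPKM in Dox_OA and 3.73, 3.02, 3.27 and 2.94 in Dox_OOA, overlapping groups, with an interaction of -0.31 ± 0.11 (limma adjusted p = 0.0386). That call was lost without the filter, with voom on recovered reads, and without OA 1 and 3, OOA 1, 3 and 4, Dox_OA 3 and 4 and Dox_OOA 2 and 4 in turn (adjusted p up to 0.0867). Mrpl1, Mrpl2, Mrps2, Mrps17 and Mrps31 had interactions between -0.36 and -0.23. For Mrpl47 the interaction of -0.29 ± 0.10 stood beside a fall with doxycycline (-0.29 ± 0.07) and 0.00 ± 0.07 in the water arm. Mrpl47 lies opposite Actl6a and Ndufb5. Both were called lower with doxycycline (-0.28 ± 0.06 and -0.11 ± 0.04) and in the water arm (-0.45 ± 0.06 and -0.22 ± 0.04). Of the 14 calls, 8 held in all 30 alternatives, and those of Mrpl1, Mrpl2, Mrpl32, Mrpl47, Mrpl51 and Mrps17 did not. Leaving out 1 library at a time gave 9 to 14 calls, with 9 without OOA 4 and without Dox_OA 4, and testing without the filter gave 8.

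Doxycycline was also compared with water within each treatment. Under oligomycin, Dox_OOA against OOA, 30 members were lower and 4 higher. That is 39.0% lower and 5.19% higher, against 23.7% and 22.0% of all genes tested, with 18 Mrpl and 12 Mrps lower and 2 of each higher. The median difference was -0.15 for Mrpl and -0.16 for Mrps, against -0.01 for all genes. Of the 77 values 63 were below 0, against 6580 of 12904 over all genes. Without Dox_OOA 3 the Mrps median was -0.0851. This comparison shares the OOA libraries with OOA against OA, so that the values of both are given side by side and no overlap between them is drawn.

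Mrps18b had 14.8, 13.0, 15.1 and 14.1 FPKM in OOA and 8.33, 9.48, 7.69 and 8.87 in Dox_OOA. Every Dox_OOA library was lower, with a difference of -0.67 ± 0.09 (limma adjusted p = 3.03e-06), beside 0.66 ± 0.09 in OOA against OA. Mrps6, of the small subunit, had 12.2, 13.5, 15.3 and 15.8 FPKM in OOA and 9.20, 9.75, 7.44 and 9.38 in Dox_OOA. The groups did not overlap and differed by -0.61 ± 0.10 (limma adjusted p = 3.58e-05), while Slc5a3, on the same strand, differed by -0.19 ± 0.07 (adjusted p = 0.0220). Mrpl24 differed by -0.53 ± 0.07 (limma adjusted p = 3.81e-06), Mrpl2 by -0.45 ± 0.09, Mrps2 by -0.41 ± 0.06, Mrpl44 by -0.38 ± 0.07, Mrpl12 by -0.29 ± 0.07, Mrps7 by -0.26 ± 0.08 and Mrpl10 by -0.19 ± 0.05, all called lower. The Mrpl10 call was lost with voom (adjusted p = 0.0628). Mrpl44 lies opposite Wdfy1, which fell by 0.33 ± 0.07 (adjusted p = 0.000303).

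The 4 members called higher were Mrps21 (0.63 ± 0.09, limma adjusted p = 2.69e-06), Mrpl18 (0.44 ± 0.11, adjusted p = 0.00196), Mrpl51 (0.21 ± 0.08, adjusted p = 0.0470) and Mrps36 (0.20 ± 0.08, adjusted p = 0.0415). All Dox_OOA libraries of Mrps21 and Mrpl51 lay above all OOA libraries. Those of Mrpl18 did not, because Dox_OOA 3 held 11.9 FPKM and OOA 1 held 12.1. Those of Mrps36 did not either, with 7.63 FPKM in Dox_OOA 3 and 7.92 in OOA 4. The Mrpl51 call was lost without BSA 1 and 4, OA 1 and 4, OOA 1, 3 and 4, Dox_BSA 3, Dox_OA 1 and 4 and Dox_OOA 1, 2, 3 and 4 in turn and without the filter (adjusted p up to 0.114). The Mrps36 call was lost without OOA 1 and 3 and Dox_OOA 1, 2 and 4 in turn, without the filter, with the compared groups alone and with voom (adjusted p up to 0.131). Of the 34 calls, 26 held in all 30 alternatives, those of Mrpl10, Mrpl13, Mrpl37, Mrpl46, Mrpl51, Mrps17, Mrps27 and Mrps36 did not, and leaving out 1 library gave 31 to 36.

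Under oleic acid alone, Dox_OA against OA, 8 members were lower and none higher (10.4% lower, against 7.01% of all genes). They were Mrpl12, Mrpl15, Mrpl19, Mrpl22, Mrpl37, Mrpl46, Mrps22 and Mrps26, with differences between -0.43 and -0.17. The medians were -0.11 for Mrpl and -0.12 for Mrps, against -0.01 for all genes. Of the 77 values 67 were below 0, against 6897 of 12904 over all genes. This comparison shares the OA libraries with OOA against OA and with OA against BSA. OA had the highest mean sum for both subunits, so these differences are not independent. Mrpl22, a protein lining the exit tunnel, had 18.2, 15.1, 16.0 and 12.5 FPKM in OA and 9.60, 11.9, 12.8 and 10.5 in Dox_OA. The highest Dox_OA library overlapped the lowest OA library, and the difference was -0.43 ± 0.11 (limma adjusted p = 0.0157), lost without OA 1 and Dox_OA 1 in turn (adjusted p up to 0.0640). Mrpl46, without a bacterial counterpart, had 8.09, 8.64, 9.35 and 8.72 FPKM in OA and 6.57, 5.91, 7.12 and 6.25 in Dox_OA. These did not overlap and differed by -0.38 ± 0.11 (limma adjusted p = 0.0291), lost without the filter and without OA 2, 3 and 4 and Dox_OA 1, 2 and 4 in turn (adjusted p up to 0.0889). Each of the 8 calls was lost in at least 1 of the 30 alternatives. Their number was 2 without the filter and ran from 2 (without OA 2) to 9 with 1 library left out, with 3 without Dox_OA 2, 4 without OA 1 or Dox_OA 1 and 5 without OA 4 or Dox_OA 4.

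In albumin, Dox_BSA against BSA, limma called 0 members, as did voom on recovered reads, against 2.18% of all genes called in either direction. At an unadjusted p under 0.05 were 6 of the 77 members, against 1795 of 12904 genes. Oleic acid against albumin in the water arm gave 2 members higher, against 4.67% of all genes, and none lower. Mrpl20, whose bacterial counterpart takes part in early assembly of the large subunit, had 14.5, 17.0, 16.0 and 14.2 FPKM in BSA and 19.4, 19.7, 19.6 and 19.0 in OA. Every OA library was above every BSA library, by 0.32 ± 0.06 (limma adjusted p = 0.00187), and the call held in all 30 alternatives. Mrps26, a small-subunit protein of mitochondria, had 7.75, 9.38, 8.96 and 6.82 FPKM in BSA and 9.60, 10.8, 10.1 and 9.61 in OA. The groups did not overlap and differed by 0.26 ± 0.08 (limma adjusted p = 0.0364), a call lost without the filter, with the compared groups alone, with a fixed sum of FPKM, and without BSA 1 and 4 and OA 1, 2, 3 and 4 in turn (adjusted p up to 0.162).

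With doxycycline, Dox_OA against Dox_BSA, limma called 0 members (and 0 by voom), against 6.71% of all genes called in either direction. Here 5 of the 77 members had an unadjusted p under 0.05, against 2420 of 12904 genes. The interaction of doxycycline with OA against BSA was called for 0 members (and 0 by voom), against 0.635% of all genes. Its unadjusted p was under 0.05 for 8 of the 77 members, against 1170 of 12904 genes. Mrpl20 had 18.2, 16.7, 16.1 and 16.4 FPKM in Dox_BSA and 16.4, 16.5, 17.6 and 17.3 in Dox_OA, overlapping groups. Its interaction of -0.31 ± 0.09 was not called (limma adjusted p = 0.172).

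Large and small subunit were set side by side by the share of their members called. By symbol, 31.2% of Mrpl and 34.5% of Mrps were lower in OOA than in OA, against 28.4% of all genes. Higher were 14.6% and 24.1%, against 28.5%. In Dox_OOA against OOA, 37.5% of Mrpl and 41.4% of Mrps were lower, against 23.7% of all genes. The order was the other one in Dox_OOA against Dox_OA, with 27.1% of Mrpl and 10.3% of Mrps lower, against 17.0% of all genes. The medians there did not follow that order, at -0.08 for Mrpl and -0.11 for Mrps. Values below 0 numbered 34 of 48 Mrpl and 22 of 29 Mrps, against 6378 of 12904 over all genes. In Dox_OA against OA, 6 Mrpl (12.5%) and 2 Mrps (6.90%) were lower, against 7.01% of all genes. None of these calls held in all 30 alternatives. Moving Mrps30 and Mrps18a to the large subunit, where structures place them, and leaving out Mrps36 gave 8 higher and 15 lower of 50 large-subunit members in OOA against OA, and 6 higher and 9 lower of 26 small-subunit members. Of 46 members with a bacterial counterpart 10 were higher and 15 lower in OOA, and of 30 without one 4 were higher and 9 lower. No difference between these classes was tested.

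The members that rose had larger gene lengths and lower FPKM in the deposited table than those that fell. This length need not be that of a transcript: for Mrpl32 it was 4982 bases, its whole span from 14782769 to 14787750. FPKM is divided by the same length, so length and level are linked. The median gene length was 3793 bases for the 14 members higher in OOA, 1532 for the 25 lower and 2541.5 for the 38 not called. Their median levels were 5.44, 15.3 and 10.6 FPKM. Across the 77 members, Spearman's rho of the OOA against OA difference with gene length was 0.39, against 0.05 across all 12904 genes, and with mean FPKM it was -0.26, against -0.09. In the doxycycline arm, rho with gene length was 0.35, against 0.06. The members share libraries and are not independent, and these are descriptions. Of the 14 members higher in OOA 1 overlaps another expressed gene, as do 8 of the 25 lower and 13 of the 38 not called.

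Other genes of mitochondrial translation were followed as lists. The 5 mitoribosomal proteins with another symbol (Dap3, Gadd45gip1, Chchd1, Ptcd3 and Aurkaip1) had no call in OOA against OA (limma, 0 at an unadjusted p under 0.05, and 0 by voom). In Dox_OOA against OOA 3 of them were lower (60%, against 23.7% of all genes), namely Dap3 (-0.20 ± 0.06), Gadd45gip1 (-0.34 ± 0.10) and Ptcd3 (-0.35 ± 0.06). Of 13 tested translation factors, 4 were higher and 3 lower in OOA than in OA, which at 30.8% and 23.1% is near the 28.5% and 28.4% of all genes. Mrrf, which with Gfm2 recycles the ribosome after termination, rose from 5.73 ± 0.460 to 8.24 ± 0.271 FPKM (SD, n = 4 each), a difference of 0.46 ± 0.05 (limma adjusted p = 3.82e-08). Gfm2 rose by 0.33 ± 0.06 and the membrane insertase Oxa1l by 0.30 ± 0.05, while the elongation factor Gfm1 differed by -0.29 ± 0.05 and was called lower.

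Of 26 tested genes for mitoribosome assembly and rRNA modification, 9 were higher and 2 lower in OOA against OA (34.6% and 7.69%, against 28.5% and 28.4% of all genes). In Dox_OOA against OOA 2 were higher and 17 lower (7.69% and 65.4%, against 22.0% and 23.7%). Both comparisons share the OOA libraries. In Dox_OOA against Dox_OA, without them, 0 were higher and 2 lower (7.69% lower, against 17.0% of all genes). Nsun4, an rRNA methyltransferase, rose from 3.90 ± 0.0357 to 6.74 ± 0.354 FPKM (SD, n = 4 each) and stood at 4.13 ± 0.205 in Dox_OOA. Its interaction was -0.66 ± 0.06 (limma adjusted p = 3.69e-08). The helicase Dhx30 rose by 0.23 ± 0.04, Ngrn by 0.43 ± 0.07 and Mterf3 by 0.45 ± 0.08 in OOA. Of 12 genes for mitochondrial transcription and RNA handling, 7 were higher and 0 lower in OOA against OA (58.3% higher, against 28.5% of all genes). In Dox_OOA against OOA 0 were higher and 10 lower (83.3% lower, against 23.7% of all genes). In Dox_OOA against Dox_OA limma called 0 of the 12 (0 at an unadjusted p under 0.05), against 16.2% of all genes higher and 17.0% lower. Lrpprc, which stabilises mitochondrial mRNAs, went from 11.0 ± 0.400 FPKM in OA to 17.6 ± 0.748 in OOA and 10.8 ± 0.387 in Dox_OOA, with an interaction of -0.60 ± 0.07 (limma adjusted p = 7.18e-07). The elongation factor Tefm rose by 0.47 ± 0.08 in OOA, with an interaction of -0.56 ± 0.11 (limma adjusted p = 0.000428).

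**Figure D4:**
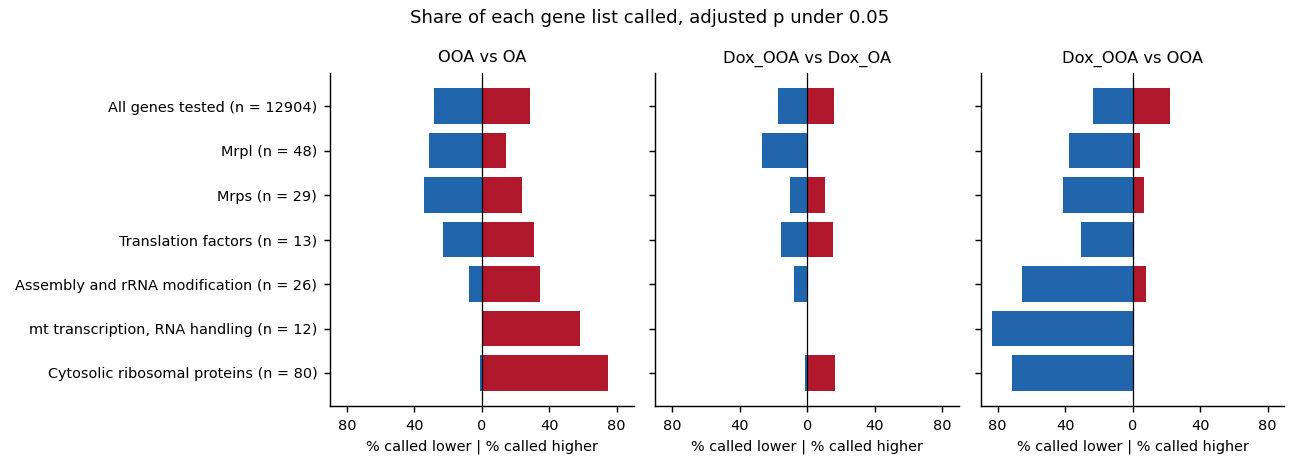
Share of each list called lower (left of 0) and higher (right of 0) by limma in 3 comparisons, as percent of the genes tested in the list. In OOA against OA the cytosolic ribosomal proteins are 75.0% higher and 1.25% lower, while Mrpl (14.6% higher, 31.2% lower) and Mrps (24.1% higher, 34.5% lower) are called in both directions.

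The cytosolic ribosomal proteins, which build the ribosome outside mitochondria, were called mostly in 1 direction. Of 80 tested, 60 were higher and 1 lower in OOA against OA, with a median of 0.27, and 0 were higher and 57 lower in Dox_OOA against OOA, with a median of -0.28. These are 75.0% higher and 71.2% lower, against 28.5% and 23.7% of all genes. Both comparisons use the OOA libraries. In Dox_OOA against Dox_OA, which does not, 13 were higher and 1 lower, with a median of 0.06. These are 16.25% and 1.25%, against 16.2% and 17.0% of all genes. No test compared this list with the members.

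Both rRNAs of the mitoribosome were higher in OOA than in OA. How rRNA was removed or mRNA selected in these libraries is not stated in the sources used here, so their levels are those of rRNA left in the libraries. For mt-Rnr1, the OA libraries held 64.1, 72.4, 75.1 and 91.4 FPKM, the OOA libraries 470.0, 349, 352 and 353, the Dox_OA libraries 114, 103, 109 and 113 and the Dox_OOA libraries 216, 217, 191 and 199. Every OOA library lay above every other library of the series, and OOA 1 was the highest. The difference was 2.32 ± 0.10 in the water arm (SE, limma adjusted p = 1.91e-14) and 0.90 ± 0.10 with doxycycline (adjusted p = 6.8e-07), with an interaction of -1.42 ± 0.15 (adjusted p = 1.46e-07). In albumin, mt-Rnr1 was 67.6 ± 10.4 FPKM with water and 239.7 ± 8.58 with doxycycline (SD, n = 4 each), a difference of 1.82 ± 0.10 (limma adjusted p = 1.22e-10).

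mt-Rnr2 had 104, 118, 123 and 156 FPKM in the OA libraries and 378, 242, 282 and 297 in the OOA libraries. These did not overlap and differed by 1.25 ± 0.13 (limma adjusted p = 5.51e-08). With doxycycline the addition of oligomycin made a difference of 0.03 ± 0.13 (adjusted p = 0.888), and the interaction was -1.22 ± 0.19 (adjusted p = 3.39e-05). In albumin it was higher with doxycycline by 0.93 ± 0.13 (adjusted p = 0.000234), at 245 ± 7.62 against 129 ± 21.0 FPKM (SD, n = 4 each), in the comparison in which 0 of 77 member mRNAs were called.

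**Figure D5:**
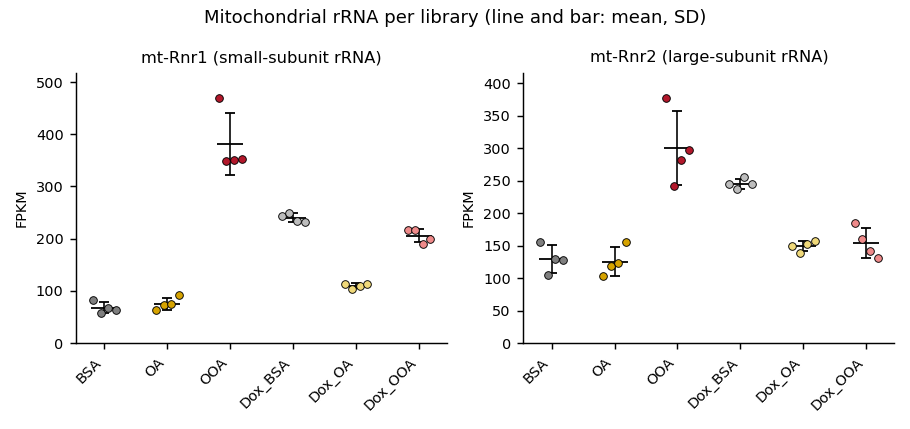
FPKM per library of mt-Rnr1 (left) and mt-Rnr2 (right) in the 6 groups, with line and bar for mean and SD (n = 4). mt-Rnr1 is at 349 to 470.0 FPKM in OOA and at 64.1 to 91.4 in OA, and both rRNAs are higher in Dox_BSA than in BSA.

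Of the 77 members, 20 (26.0%) were called in none of the 9 comparisons, interactions included, close to the 28.3% of all genes tested. They were Mrpl4, Mrpl9, Mrpl14, Mrpl33, Mrpl35, Mrpl36, Mrpl39, Mrpl40, Mrpl43, Mrpl45, Mrpl52, Mrpl55, Mrpl58, Mrps16, Mrps18a, Mrps23, Mrps28, Mrps33, Mrps34 and Mrps35. A p-value above the threshold does not show that their levels were equal.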

How the data were processed

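The deposited table gave FPKM values per Ensembl gene on GRCm39 coordinates, per the file headers, for 24 libraries. Total RNA was made into libraries with an unstated selection step, per the labels' protocols, and STAR, HISAT2, HTSeq, DESeq2, edgeR, STAR-Fusion, GRCm39 and mm39 are named without versions or roles, per the submitters' processing notes. Each library's values were whole multiples of 1 read within 0.01, so that the whole reads assigned to genes were recovered (20370651 to 29410667 a library). This depth sets the counting precision of low members.

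Genes with at least 1 FPKM in at least 4 libraries (12904 of 56748) were tested on log2(FPKM + 1) with limma 3.58.1 in R 4.3.3, in 1 fit over the 6 groups with 18 residual degrees of freedom, a mean-variance trend and robust moderation. Benjamini-Hochberg adjustment ran over all genes tested in each of 9 comparisons, 7 differences and 2 interactions, with a threshold of 0.05. Differences are on the log2(FPKM + 1) scale and understate changes of low genes. Tables and figures were made with Python 3.11.15, pandas 2.3.3 and matplotlib 3.10.9, and the fit was tested on simulated data.

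Members and lists were chosen with earlier results of these data known. Given library by library were the 6 called members with the largest difference in each direction in OOA against OA, and the 2 in each direction in every other comparison. Stalk proteins, a few members of known role and up to 4 genes of each list with the smallest p in OOA against OA could also be named. Mrpl17, Mrpl3 and Mrpl47 and the members whose calls were lost were named after their values were seen.

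Alternatives were a pseudocount of 0.1, no filter, the compared groups alone, a fixed sum of FPKM, limma-voom on recovered reads, the replicate number as a block, and leaving out each of the 24 libraries, 30 in all. Replicates of a group differed by more than sampling noise in all 36 pairs (chi-square per degree of freedom 5.24 to 21.6). Promoter windows came from RefSeq, matched by symbol.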

Additional observations from a re-analysis of the deposited data

Results flagged for a closer look

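In 8 of the 132 groups of 4 libraries examined, 1 library stood apart from the other 3 by more than Dixon's critical value, and chance does this in about 1 in 20 groups. Mrps26 was 6.979 FPKM in Dox_OOA 1 against 6.448 to 6.519 in the rest of the group, and Mrpl57 was 6.599 in OOA 1 against 5.744 to 5.747. Mrpl18 was 11.92 FPKM in Dox_OOA 3 against 17.26 to 17.69, Mrpl51 was 9.644 in Dox_OA 3 against 7.794 to 8.1, and Mrpl22 was 9.918 in Dox_OOA 2 against 12.15 to 12.31. Dox_OA 3 was also the highest of its group in both sums, with 707.1 FPKM for Mrpl against 668.2 to 669.8 and 318.6 for Mrps against 295.6 to 299.3. mt-Rnr1 was 470.0 FPKM in OOA 1 against 349.4 to 352.9.

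The difference between OOA and OA changed with doxycycline, by limma's interaction term, in 14 members. A smaller fall with doxycycline gave positive interactions of 0.5804 for Mrpl18, 0.3404 for Mrpl51, 0.6552 for Mrps21 and 0.4187 for Mrps36. A smaller or absent rise, or a value below 0, gave negative ones of -0.5441 for Mrpl24, -0.7226 for Mrps18b, -0.3966 for Mrps10, -0.3083 for Mrpl32, -0.3406 for Mrpl1, -0.3449 for Mrpl2, -0.2318 for Mrps17, -0.2807 for Mrps2 and -0.3614 for Mrps31. Mrpl47 had -0.2902, with 0.0045 in the water arm and -0.2857 with doxycycline. Adjusted p-values ran from 0.000177 (Mrps18b) to 0.0446 (Mrps17).

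Among other genes of mitochondrial gene expression, the same interaction was -1.4152 for mt-Rnr1, -1.2201 for mt-Rnr2, -0.6593 for Nsun4, -0.2839 for Dhx30, -0.4034 for Mterf3, -0.6046 for Lrpprc, -0.5624 for Tefm and -0.2941 for Mrrf (limma adjusted p from 3.69e-08 for Nsun4 to 0.00969 for Mterf3). The difference between OA and BSA changed with doxycycline for mt-Rnr1, by -1.2825, from 0.1632 with water to -1.1193 with doxycycline (limma adjusted p = 1.21e-05).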

How the results depend on the processing

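No named gene reversed in any of the 30 alternatives: of 6630 values for 221 calls on members and listed genes, 6179 kept the call and 451 lost it, 46 of them without the filter. Members called in OA against BSA numbered 1 without the filter, with the compared groups alone and with a fixed sum of FPKM, and 1 to 5 with 1 library left out. Those in Dox_OA against OA numbered 2, 5 and 4 under the same 3 settings, and 2 to 9 with 1 library left out. The interaction with OOA against OA was called for 8 members without the filter and 9 to 14 with 1 library left out, and Dox_OA against Dox_BSA gave 0 to 1. With a fixed sum, the OA against BSA median was 0.0336 for Mrpl and 0.0176 for Mrps, and the Mrps median in Dox_OOA against OOA was -0.1174. With voom, the Mrps median was 0.0320 in OA against BSA, -0.0275 in OOA against OA, -0.1181 in Dox_OOA against OOA and -0.0237 for the interaction, and the Mrpl median in OOA against OA was -0.1014. With 1 library left out, the Mrpl median ran from -0.0682 to -0.0410 in OOA against OA and -0.1238 to -0.0568 in Dox_OOA against Dox_OA, and the Mrps median from 0.0337 to 0.0615 in OA against BSA, -0.0174 to 0.0218 in OOA against OA, -0.1876 to -0.0851 in Dox_OOA against OOA, -0.1209 to -0.0506 in Dox_OOA against Dox_OA, -0.0713 to -0.0118 for the interaction with OOA against OA and -0.0994 to -0.0440 for that with OA against BSA. Voom used the recovered reads without the rescaled library size of the FPKM. The cause of these shifts was not tested.

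Libraries of different groups with the same replicate number correlated weakly in their deviations (median r 0.034 over 60 pairs, 9 of them over 0.1), against a median of -0.009 over 180 pairs with different numbers, 5 of them over 0.1. The main fit did not use the numbers, and these values do not settle whether they pair samples. With the number as a replicate block, members called were 3 in OA against BSA, 41 in OOA against OA, 9 in Dox_OA against OA, 35 in Dox_OOA against OOA, 20 in Dox_OOA against Dox_OA and 13 for the interaction with OOA against OA, and 3 of the 221 calls were lost.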
